A study of Mus musculus with 6 samples.

Results

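The Slc25 genes encode the mitochondrial carrier family. The members described here are the 47 protein-coding rows of the deposited count table, out of 41921 rows in all, whose symbol is Slc25a followed by a number. Their transcripts were sequenced in 6 RNA libraries from RAW264.7 cells, a macrophage-like mouse line that the cytokine RANKL can drive towards osteoclasts. All samples carry the genotype label WT and belong to a differentiation protocol with RANKL at 50 ng/mL, given to cells 3 days past confluence. The labels put 3 libraries under RANKL intervention and 3 under albiflorin intervention, albiflorin being a monoterpene glycoside of peony root. Whether the albiflorin libraries also received RANKL is stated only by that shared protocol text, and no source used here gives its dose or duration. RAW264.7 is a transformed line of BALB/c origin, so it stands in for primary osteoclast precursors only in part.

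Mitochondrial carriers sit mostly in the inner mitochondrial membrane and exchange nucleotides, phosphate, amino acids, carboxylates, cofactors and metal ions between the matrix and the cytosol. Without them the ATP made by oxidative phosphorylation could not leave the matrix, and the matrix enzymes would lack substrates and cofactors. Osteoclasts are rich in mitochondria, and their differentiation is known to depend on respiration and on iron supply to the matrix. The series title names osteoclast mitophagy as its subject, and the comparison asked how carrier transcripts differed between the albiflorin and RANKL libraries.

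The 6 libraries held 13673284 to 15489482 counts. Of the macrophage markers, Csf1r, Cd68, Ptprc and Adgre1 were well expressed, with means of 75.4 to 1944 CPM (counts scaled to library size) in the groups, whereas Itgam had 0.0245 CPM with RANKL and 0 with albiflorin. The osteoclast markers were lower: the highest were Acp5 at 22.9 and 27.95 CPM and Dcstamp at 18.3 and 19.0 CPM with RANKL and albiflorin, Mmp9 and Atp6v0d2 lay between 6.03 and 10.6 CPM, Ctsk stood at 0.457 and 0.693 CPM, and Calcr was at 0 in every library. The summed level of 8 osteoclast markers was 53.1 to 59.5 CPM in the RANKL libraries and 61.5 to 71.0 CPM in the albiflorin libraries, and that of 5 macrophage markers 3100 to 3278 and 2969 to 3157 CPM. Of the tested markers Acp5, an osteoclast phosphatase, was higher (0.29, edgeR adjusted p = 0.0371) and the macrophage receptor gene Adgre1 lower (-0.30, adjusted p = 0.00933) with albiflorin, on the log2 scale. After removal of a trend on mRNA length, described with the length results, Acp5 was not called (0.08, edgeR adjusted p = 0.624) and Adgre1 was (-0.28, adjusted p = 0.0137). The 4 fibroblast and 3 lymphocyte markers summed to at most 3.52 and 0.659 CPM, with Dcn and Cd3e at 0 counts. Bulk RNA cannot tell fewer cells of a kind from less RNA per cell, and the part of these differences in the carrier results was not tested. Nothing in the labels says that replicates were separate cultures, so the p-values reflect a spread among libraries that may be technical only.

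The log2 fold changes measured in the family were small. Of the 47 members 38 had enough counts to be tested, and 3 were called higher (Slc25a4, Slc25a39 and Slc25a17) and 3 lower (Slc25a23, Slc25a30 and Slc25a44) with albiflorin. A call is an adjusted p under 0.05 in edgeR's quasi-likelihood test, with Benjamini-Hochberg adjustment over all 13158 tested genes. Called members were 15.8% of the tested ones. Over all tested genes 23.8% were called, 12.4% higher and 11.4% lower. The members' share was lower, but it rests on 6 calls among 38 genes, and the difference was not tested. The SE of the tested members ran from 0.0588 to 0.419, so changes in the less precise ones could be missed. The median log2 fold change (albiflorin over RANKL) was -0.01 over the tested members and 0.01 over all tested genes. Log2 fold changes of the members ran from -0.39 to 0.30, with 19 above and 19 below 0. In 10 of 38 members, or 26.3%, every library of 1 group lay beyond every library of the other, against 40.1% of all tested genes. Of these 10, albiflorin was above RANKL in 6 and below it in 4.

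Promoters of 5 members are shown because their transcripts carried the results: Slc25a4, Slc25a23 and Slc25a30, whose calls survived every alternative processing tried, and Slc25a3 and Slc25a5, the most abundant members. Each is the 250 bases before a transcription start in RefSeq, build GRCm38.p6, and only 36 of the 47 members had such an entry. Capitals mark letters that match a motif searched on both strands.
Slc25a4 (chr8:46211063-46211312, minus strand): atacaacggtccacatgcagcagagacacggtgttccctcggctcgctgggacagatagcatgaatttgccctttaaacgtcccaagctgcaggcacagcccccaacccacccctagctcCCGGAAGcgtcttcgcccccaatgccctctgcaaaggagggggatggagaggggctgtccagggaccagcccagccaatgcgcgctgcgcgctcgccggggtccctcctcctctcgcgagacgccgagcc
Slc25a5 (chrX:36795347-36795596, plus strand): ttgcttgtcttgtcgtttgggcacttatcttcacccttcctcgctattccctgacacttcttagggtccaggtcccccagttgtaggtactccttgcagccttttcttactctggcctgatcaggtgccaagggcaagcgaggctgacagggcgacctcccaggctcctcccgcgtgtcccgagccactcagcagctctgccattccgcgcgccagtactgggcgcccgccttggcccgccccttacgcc
Slc25a3 (chr10:91123968-91124217, minus strand): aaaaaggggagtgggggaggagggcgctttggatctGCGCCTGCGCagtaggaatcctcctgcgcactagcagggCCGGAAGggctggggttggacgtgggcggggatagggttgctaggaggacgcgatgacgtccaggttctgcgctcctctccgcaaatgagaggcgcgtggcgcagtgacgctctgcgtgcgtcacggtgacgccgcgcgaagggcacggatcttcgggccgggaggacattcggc
Slc25a23 (chr17:57059843-57060092, minus strand, 1 of 2 listed starts): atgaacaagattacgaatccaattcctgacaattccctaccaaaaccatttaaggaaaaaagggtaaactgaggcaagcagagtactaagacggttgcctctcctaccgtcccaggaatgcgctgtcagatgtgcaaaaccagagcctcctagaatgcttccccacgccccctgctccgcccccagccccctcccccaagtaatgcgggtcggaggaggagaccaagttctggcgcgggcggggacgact
Slc25a30 (chr14:75787038-75787287, minus strand): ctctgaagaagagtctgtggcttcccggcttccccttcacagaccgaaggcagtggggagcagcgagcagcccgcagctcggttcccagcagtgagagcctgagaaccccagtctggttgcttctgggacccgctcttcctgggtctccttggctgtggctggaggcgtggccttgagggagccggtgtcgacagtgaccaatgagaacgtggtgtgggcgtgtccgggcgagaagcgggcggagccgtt
The capitals in Slc25a4 are an ETS motif (CCGGAAG), which lies 130 bases before the start. Slc25a3 holds an NRF1 motif 214 bases and an ETS motif 175 bases before its start. None of the motifs searched matched in the windows of Slc25a5, Slc25a23 or Slc25a30.

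NRF1 and ETS proteins such as GABP are known regulators of nuclear genes for mitochondrial proteins, and E-box motifs bind factors such as Myc and USF. In the 46 listed promoters of the 36 members, the ETS motif occurred in 13.0% against 6.91% of all 32851 RefSeq promoters, and the E-box CACGTG in 17.4% against 6.02%. The NRF1 motif occurred in 4.35% against 3.74%, in Slc25a3 and in Slc25a31. The cyclic AMP response element TGACGTCA occurred in 4.35% against 1.55%, and the AP-1 motif TGANTCA in 4.35% against 6.75%. The GC box GGGGCGGGG occurred in 8.70% of member promoters and 10.4% of all. An ERR motif (TCAAGGTCA) and a YY1 motif (AAGATGGC) matched in none of the member promoters, against 0.387% and 1.56% of all. None of these motifs contains another, and alternative starts of a gene share sequence, so the 46 windows are not independent. Of the called members with an entry, Slc25a4 and Slc25a17 held the ETS motif, Slc25a39 the GC box, and Slc25a23 and Slc25a30 none. These matches describe letters in a window and not binding.

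**Figure D1:**
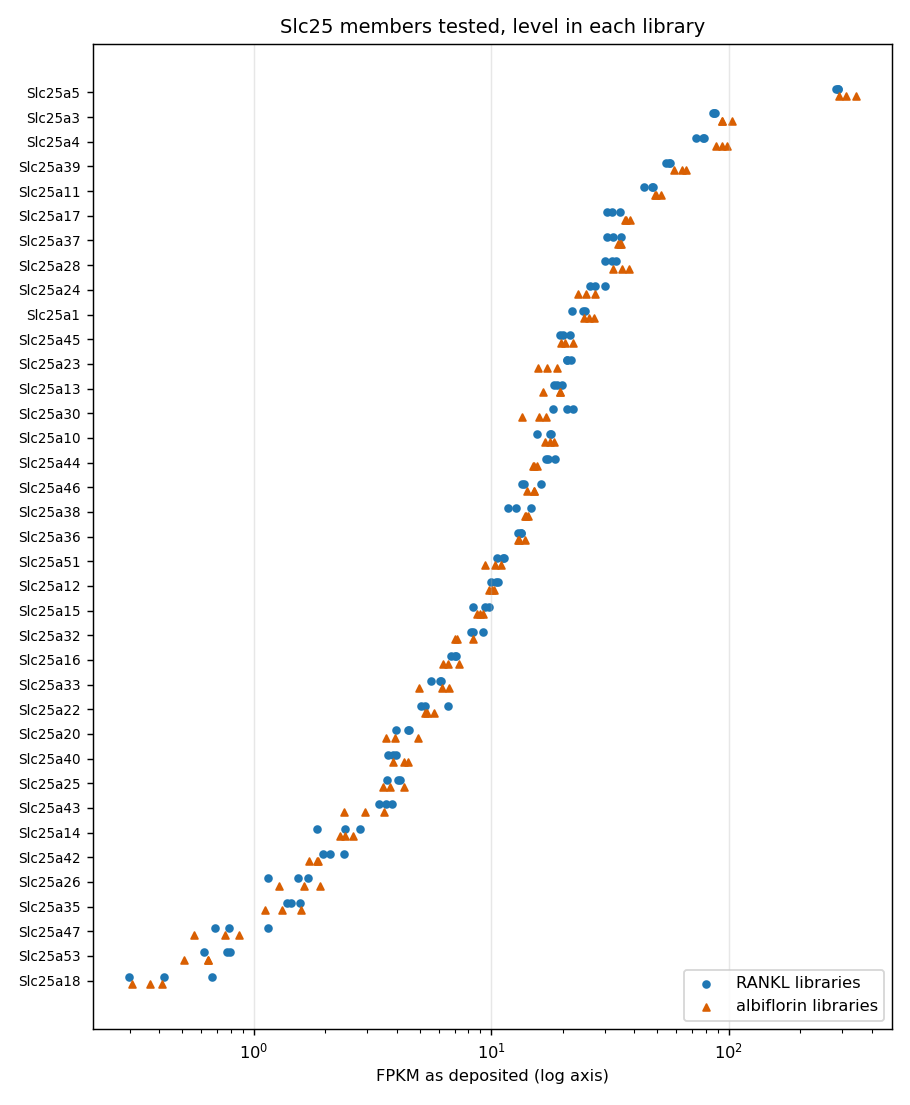
FPKM of 37 of the 38 tested members in each library, on a log axis, with circles for RANKL and triangles for albiflorin. Slc25a5, Slc25a3 and Slc25a4 lead, and the members span 0.412 to 300.6 FPKM in their means over 6 libraries.

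Carrier transcripts were dominated by the genes that move ATP, ADP and phosphate. All members together took 0.290% ± 0.00448 of the counts with RANKL and 0.301% ± 0.00592 with albiflorin (SD, n = 3 per group). Of the summed FPKM, which is per length, they took 0.284% ± 0.00777 with RANKL and 0.273% ± 0.00095 with albiflorin, the opposite direction. The members' own FPKM sum was not lower, at 944.8 ± 4.71 with RANKL and 1008 ± 36.4 with albiflorin. The FPKM total of all genes was 324298 to 339841 in the RANKL libraries and 359240 to 383188 in the albiflorin libraries. Slc25a3, Slc25a5 and Slc25a4 took 16.6% to 18.4%, 16.3% to 18.4% and 5.92% to 7.41% of those member counts. Levels between genes were compared per length, first as the authors' FPKM, which uses the listed length of all exons joined, and again as CPM per kilobase of GENCODE M21 mRNA. The order of the first 5 was the same on both scales: Slc25a5, Slc25a3, Slc25a4, Slc25a39 and Slc25a11. The plot of FPKM by library shows 21 members with a mean of at least 10 FPKM and 6 tested members under 2.

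Slc25a5 encodes ADP/ATP translocase 2, the isoform of dividing cells, and lies on chromosome X, 32342418 to 32347027, in the coordinates of the deposited table. Its FPKM was 281.5, 289.1 and 288.7 in the RANKL libraries and 311.2, 343.3 and 289.7 in the albiflorin libraries. The third albiflorin library stood next to the RANKL libraries and the other two above them, so the groups were separated by a narrow gap. The log2 fold change was 0.14 ± 0.0677 (SE; edgeR adjusted p = 0.149), and without albiflorin replicate 3 the gene was called higher (0.20, adjusted p = 0.0402). Processed pseudogene rows described as copies of it held up to 353 counts over the 6 libraries together. Slc25a5 itself held 6421 to 7927 counts in each library. Reads may be split among copies, so its values carry that uncertainty.

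Slc25a4 encodes ADP/ATP translocase 1, the isoform of heart and muscle (MGP_C57BL6NJ_G0034081, chromosome 8, 47005541 to 47010028). Its CPM was 185.7, 171.4 and 183.4 with RANKL and 222.0, 232.3 and 209.7 with albiflorin. Every albiflorin library lay above every RANKL library. Slc25a4 rose by 0.30 ± 0.0623 on the log2 scale (SE; edgeR adjusted p = 0.00329), with means of 180.2 ± 7.67 and 221.3 ± 11.3 CPM (SD, n = 3 each). It was the largest increase in the family. The call held under 16 of 16 alternatives, with log2 fold changes from 0.17 to 0.33.

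Slc25a3, the phosphate carrier that supplies ATP synthase (chromosome 10, 95462443 to 95469928), had 486.1, 481.5 and 478.9 CPM with RANKL and 522.4, 575.3 and 524.1 CPM with albiflorin. The groups did not overlap, but the log2 fold change of 0.16 ± 0.0614 was not called (edgeR adjusted p = 0.0627). DESeq2 (adjusted p = 0.0234) and limma-voom (adjusted p = 0.0498) called it. The listed length of Slc25a3 is 5550 bases against an mRNA of 1612 nt, and per kilobase of mRNA its mean level was 317.2 CPM, against 406.5 for Slc25a5 and 104.3 for Slc25a4. The testis isoform Slc25a31 had 0 counts in all 6 libraries, which does not exclude a very low level. For scale, 3 counts in the smallest library by scaled size are 0.223 CPM, and 0 counts in all 6 set a tighter limit than that.

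The ATP-Mg/phosphate carriers are activated by cytosolic calcium and set the adenine nucleotide content of the matrix. Of 3 tested members 0 rose and 1 fell, against 23.8% of all tested genes called and 11.4% called lower. So few genes give no result for the group. Slc25a23 (MGP_C57BL6NJ_G0024356, chromosome 17, 61059906 to 61092512) had 114.6, 110.4 and 110.6 CPM with RANKL and 91.4, 84.0 and 100.3 CPM with albiflorin. All albiflorin libraries lay below the RANKL libraries. The change from 111.9 ± 2.35 to 91.9 ± 8.15 CPM was a log2 fold change of -0.28 ± 0.0685 (edgeR adjusted p = 0.00756), called under 16 of 16 alternatives (-0.35 to -0.23). Slc25a24 stood at -0.14 ± 0.0737 (adjusted p = 0.186) and Slc25a25 at -0.02 ± 0.0931 (adjusted p = 0.887), with overlapping libraries in both. Slc25a41, next to Slc25a23 on the same strand with 2966 bases between them, had 2 counts in all libraries together.

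**Figure D2:**
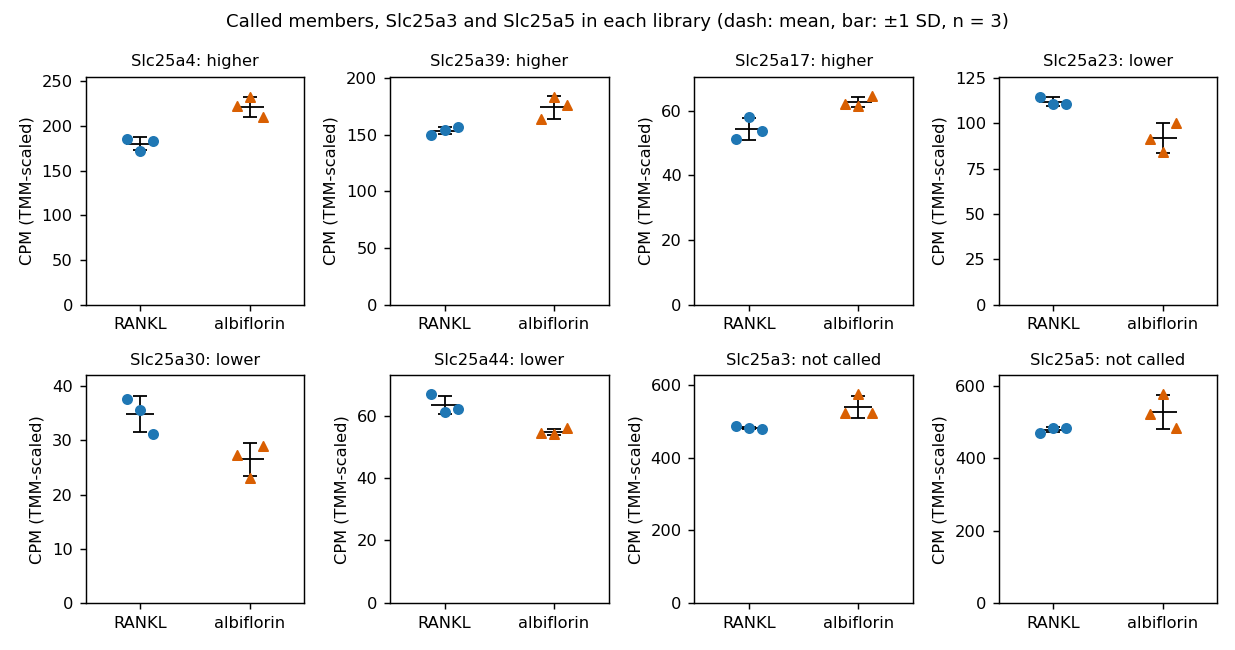
TMM-scaled CPM in each library for the 6 called members and for Slc25a3 and Slc25a5, with the mean and SD of 3 libraries per group. The groups do not overlap in any of the 8 panels. The gap is narrowest for Slc25a5, between 483.7 CPM with RANKL and 485.2 CPM with albiflorin.

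Among the uncoupling-protein-like carriers, Slc25a30, which is known from kidney and as a carrier of small inorganic anions, showed the largest decrease of the family. Its CPM was 37.7, 35.6 and 31.2 with RANKL and 27.3, 23.1 and 29.0 with albiflorin (chromosome 14, 73703224 to 73729674). The highest albiflorin library, at 29.0 CPM, stood under the lowest RANKL library, at 31.2 CPM. Slc25a30 fell by 0.39 on the log2 scale (SE 0.101, edgeR adjusted p = 0.0102), and the call held under 16 of 16 alternatives, from -0.59 to -0.31. Its relative Slc25a14 was near 6 CPM and stood at 0.06 ± 0.185 (adjusted p = 0.855), and Slc25a27 had 3 counts in all. Ucp2, a carrier-fold uncoupling protein outside the name rule and abundant in macrophages, had 602.3 ± 24.3 CPM with RANKL and 634.9 ± 9.98 CPM with albiflorin (0.08 ± 0.0601, adjusted p = 0.392). Ucp1 had 0 counts, and Ucp3 did not pass the filter on low counts.

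The 4 iron and glutathione carriers all had positive log2 fold changes, as did 50.9% of all tested genes. Of the 4, 1 was called (25%), near the 23.8% of all tested genes. With the mRNA-length trend removed 0 of the 4 were called, against 10.5% of all tested genes. Slc25a28 then turned to -0.04 (-0.07 with the gene-length trend removed). Slc25a39, which imports glutathione into the matrix, had 150.1, 154.1 and 156.6 CPM with RANKL and 163.5, 183.1 and 176.3 CPM with albiflorin. It rose by a log2 fold change of 0.18 ± 0.0616 (edgeR adjusted p = 0.0414), with no overlap between the groups. This call rested on all 6 libraries: leaving out any 1 of them ended it (adjusted p 0.0533 to 0.148). Its relative Slc25a40 stood at 0.14 ± 0.0846 (adjusted p = 0.253).

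The mitoferrins bring iron into the matrix for haem and iron-sulphur clusters. Slc25a37, mitoferrin 1, had 182.7, 210.0 and 193.8 CPM with RANKL and 209.2, 204.5 and 207.5 CPM with albiflorin. RANKL replicate 2 lay above all albiflorin libraries, and the log2 fold change was 0.08 ± 0.0630 (adjusted p = 0.372). Slc25a28, mitoferrin 2, stood at 48.7 ± 2.72 and 54.0 ± 4.47 CPM (0.15 ± 0.0783, adjusted p = 0.185). In FPKM the mitoferrins had nearly equal levels, 32.8 ± 2.33 and 32.0 ± 1.76 with RANKL, whereas per kilobase of mRNA mitoferrin 1 was the higher, at 48.2 against 33.4 CPM in the means over 6 libraries.

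Of the 9 carriers of nucleotides and cofactors, all tested, 1 rose and 0 fell (11.1% called, against 23.8% of all tested genes). Slc25a17, a peroxisomal carrier of cofactors such as coenzyme A and FAD, had 51.2, 58.0 and 53.8 CPM with RANKL and 62.1, 61.4 and 64.5 CPM with albiflorin. The groups did not overlap, and the log2 fold change was 0.20 ± 0.0695 (edgeR adjusted p = 0.0424). The call ended without RANKL replicate 1 or 3 or any albiflorin replicate (adjusted p up to 0.175), and held without RANKL replicate 2 (0.0307). The pyrimidine nucleotide carriers differed in level, with Slc25a36 at 127.0 ± 2.29 and 128.4 ± 4.35 CPM and Slc25a33 at 6.46 ± 0.337 and 6.49 ± 0.946 CPM, and neither was called (adjusted p = 0.885 and 0.979). An antisense gene over Slc25a36, Gm16185, held 1239 counts against 11117 for Slc25a36, and the counting strand is not given, so reads could be shared. The NAD carrier Slc25a51 (-0.10 ± 0.0730), the folate carrier Slc25a32 (-0.19 ± 0.0985) and the coenzyme A carrier Slc25a42 (-0.25 ± 0.124) were not called, although the libraries of Slc25a42 did not overlap.

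The di- and tricarboxylate carriers feed the citrate export and malate-aspartate shuttles. Of the 3 tested members 0 were called by edgeR, 0 by DESeq2 or limma-voom, and 0 had an unadjusted p under 0.05. Of all tested genes 23.8% were called by edgeR, and 3 genes are too few to differ from that share. The oxoglutarate/malate carrier Slc25a11 had 101.4, 93.5 and 102.4 CPM with RANKL and 105.8, 111.0 and 104.1 CPM with albiflorin, which did not overlap (0.11 ± 0.0625, edgeR adjusted p = 0.218). Slc25a11 overlaps Rnf167 on the opposite strand by 245 bases. The citrate carrier Slc25a1 (0.13 ± 0.0737) and the dicarboxylate carrier Slc25a10 (0.06 ± 0.0739) had overlapping libraries. With the mRNA-length trend removed the values of all 3 turned negative, to -0.05, -0.04 and -0.05. The oxoadipate carrier Slc25a21 had 0 counts in all libraries.

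Of 10 tested carriers of amino acids and carnitine 0 rose and 1 fell (10% called, against 23.8% of all tested genes). Slc25a44, which imports branched-chain amino acids (chromosome 3, 91865238 to 91879843), had 66.8, 61.1 and 62.2 CPM with RANKL and 54.3, 54.1 and 56.0 CPM with albiflorin. All albiflorin libraries lay below the RANKL libraries, with a log2 fold change of -0.21 ± 0.0670 (edgeR adjusted p = 0.0327). The call ended without RANKL replicate 1 or 3 or albiflorin replicate 1 or 2 (adjusted p up to 0.146). The aspartate/glutamate carriers Slc25a12 (-0.04 ± 0.0631) and Slc25a13 (-0.04 ± 0.0739) had overlapping libraries, at 70.7 to 76.5 CPM in the group means. The same held for the ornithine carrier Slc25a15 (-0.04 ± 0.0856), the glutamate carrier Slc25a22 (-0.05 ± 0.0991), the carnitine/acylcarnitine carrier Slc25a20 (-0.05 ± 0.118), the glycine carrier Slc25a38 (0.11 ± 0.0876), Slc25a45 (0.04 ± 0.0721) and the S-adenosylmethionine carrier Slc25a26 (0.14 ± 0.182). The outer-membrane member Slc25a46, which acts in mitochondrial shape and lipid transfer, stood at 0.03 ± 0.0768 (adjusted p = 0.820).

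**Figure D3:**
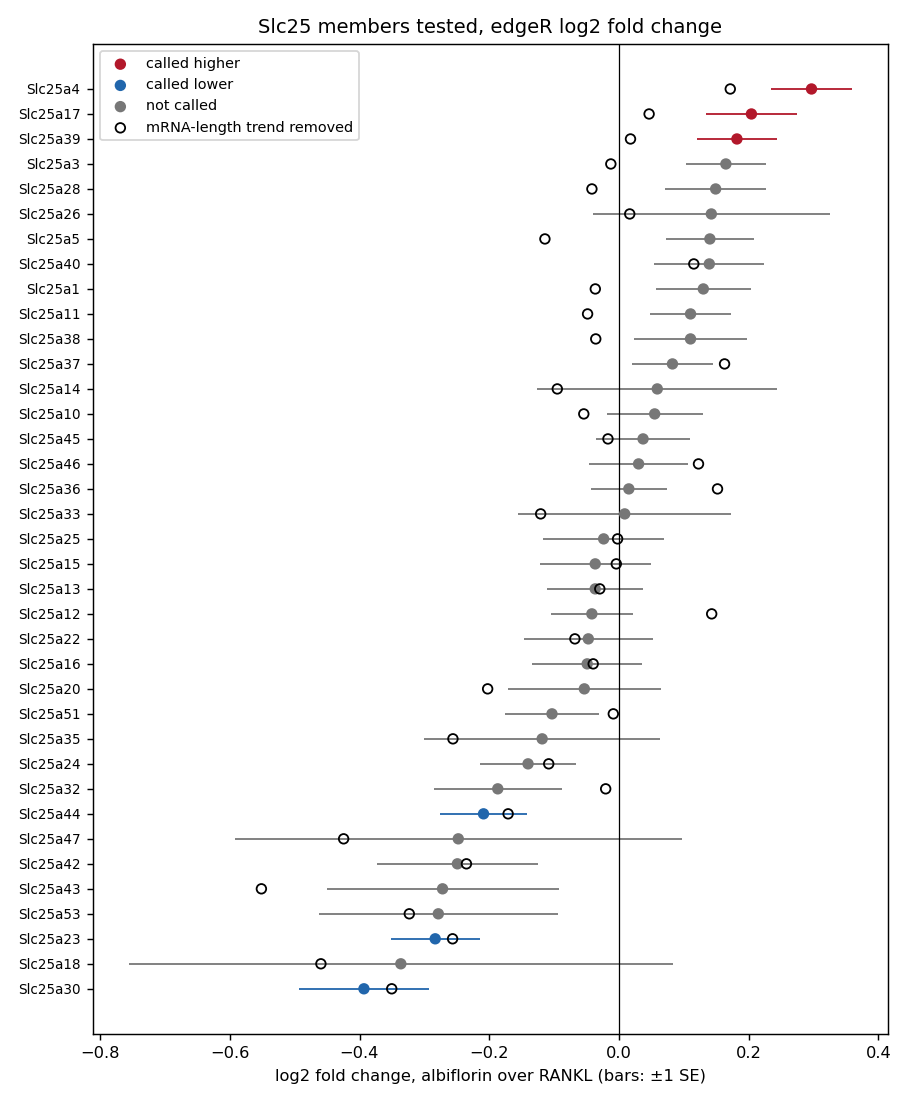
Log2 fold change, albiflorin over RANKL, of 37 of the 38 tested members, as filled circles with bars of 1 SE and open circles after removal of the mRNA-length trend. The filled circles run from -0.39 (Slc25a30) to 0.30 (Slc25a4), and most lie within 0.2 of 0.

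The 9 untested members were Slc25a2, Slc25a34, Slc25a29, Slc25a54, Slc25a27, Slc25a41, Slc25a48, Slc25a31 and Slc25a21, with 0 to 16 counts over the 6 libraries together. Some lie beside an expressed relative. Slc25a54 had 4 counts, and lies 7827 bases from Slc25a24 on the same strand, which had 95.6 ± 7.18 CPM with RANKL. Slc25a43 lies 18157 bases from Slc25a5 and stood at 6.43 ± 0.408 and 5.30 ± 1.01 CPM (-0.27 ± 0.179, adjusted p = 0.294). The orphan carriers Slc25a35 and Slc25a53 and the low members Slc25a47 and Slc25a18 also had negative values, with SE from 0.181 to 0.419, and were not called. Slc25a18 overlaps Atp6v1e1 on the opposite strand by 32 bases, and the latter held 6965 counts against 69 for Slc25a18.

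Direction in the family went with level and with mRNA length. The log2 fold change was positive for 9 of the 10 members with the highest FPKM (median 0.14) and for 10 of the 28 other tested members (median -0.04). The 10 highest had a median mRNA length of 1698 nt and the others of 2798 nt. Across the 38 tested members, the log2 fold change had a Spearman's rho of -0.403 against mRNA length and of 0.441 against the mean CPM with RANKL. That mean is not per length, and it is also the denominator of the fold change. Over all tested protein-coding genes the rho against the mean CPM with RANKL had the opposite sign, -0.139. Across 10449 tested protein-coding genes with a length the rho against length was -0.622. After removal of the mRNA-length trend, 4 of the 10 highest and 6 of the 28 others were positive. The rho against mRNA length was then 0.319 across the members and 0.011 across protein-coding genes. The removal thus left a length relation of the opposite sign within the family. These are descriptions across genes of the same 6 libraries, which are not independent replicates. All 3 members called higher had an mRNA of 1000 to 2000 nt, where 29.8% of protein-coding genes were called higher and 0.718% lower, against 13.3% and 12.6% at all lengths. All 3 called lower had 2000 to 4000 nt, where 7.29% were called higher and 4.91% lower. For Slc25a30 this class depends on the annotation, as its listed length is 1706 bases against an mRNA of 3588 nt. None of the 6 members of 4000 to 8000 nt was called in edgeR's test, where 28.7% of genes were lower; their median was -0.01 against -0.14 for the class.

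**Figure D4:**
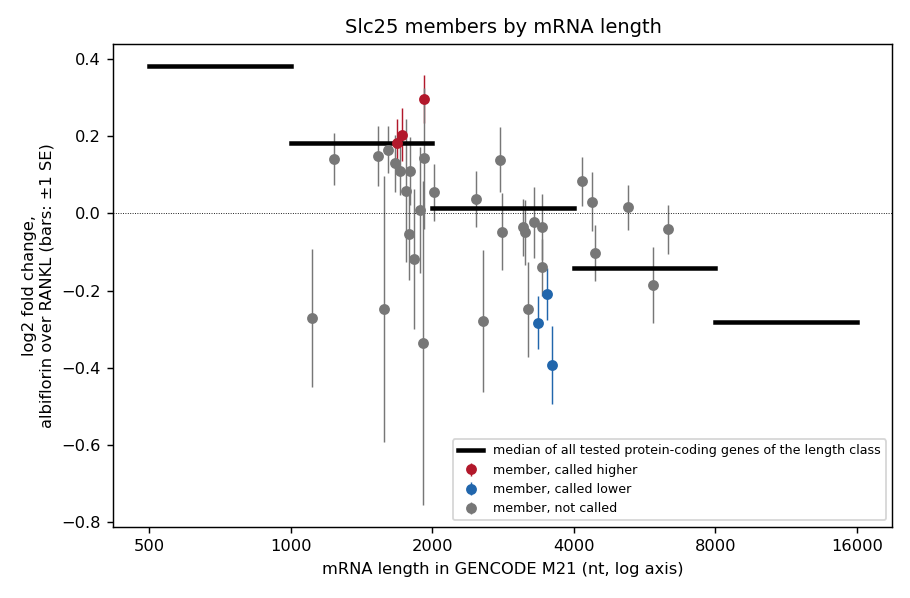
Log2 fold change, albiflorin over RANKL, of 37 of the 38 tested members against mRNA length, with bars of 1 SE, and black lines at the median of all tested protein-coding genes of each length class. The class medians fall from 0.38 under 1000 nt to -0.28 over 8000 nt, and the members called lower lie below the line at 0.01.

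With the mRNA-length trend of each library removed, Slc25a4 (0.17, adjusted p = 0.0332), Slc25a23 (-0.26, adjusted p = 0.0123) and Slc25a30 (-0.35, adjusted p = 0.0249) were still called in edgeR's test. Slc25a39 (0.02, adjusted p = 0.883), Slc25a17 (0.05, adjusted p = 0.737) and Slc25a44 (-0.17, adjusted p = 0.0826) were not. Called members were then 7.89%, against 10.5% of all tested genes, 5.04% higher and 5.49% lower. Slc25a5 changed sign, to -0.11 (adjusted p = 0.180), and Slc25a3 stood at -0.01 (adjusted p = 0.913). With the trend on the listed gene length removed instead, Slc25a3 (0.23, adjusted p = 0.0115), Slc25a36 (0.18, adjusted p = 0.0375) and Slc25a40 (0.29, adjusted p = 0.0338) were called higher beside Slc25a4, against 7.18% of all tested genes. The 3 members called lower stood against 7.96% of all tested genes, with 15.1% called in either direction. Slc25a3, Slc25a36 and Slc25a40 have a listed length above that of their mRNA, but so do many other members, Slc25a4, Slc25a5 and Slc25a23 among them. The listed length is well below the mRNA for Slc25a30 (1706 bases against 3588 nt), Slc25a32 (2945 against 5905) and Slc25a33 (1085 against 1887). Slc25a30 stood at -0.59 with the gene-length trend removed (edgeR adjusted p = 0.00186).

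The balance within 5 pairs of paralogues with shared substrates was compared between the groups. Slc25a4 made up 21.8%, 20.1% and 21.2% of the Slc25a4 and Slc25a5 FPKM in the RANKL libraries and 23.1%, 22.2% and 23.4% in the albiflorin libraries. The groups did not overlap, and the difference of 1.89 percentage points had an exact permutation p of 0.1 (two-sided), the smallest that 3 against 3 allows (0.5 after Benjamini-Hochberg adjustment over 5 pairs). Slc25a12 made up 35.3% ± 0.363 of its pair with Slc25a13 with RANKL and 35.3% ± 1.63 with albiflorin. Slc25a28 made up 49.4% ± 2.90 and 50.5% ± 2.26 of the mitoferrins. Slc25a33 made up 31.0% ± 1.41 and 30.8% ± 3.18 of its pair with Slc25a36, and Slc25a39 93.6% ± 0.163 and 93.7% ± 0.550 of its pair with Slc25a40. In these 4 pairs the difference was smaller than the SD in at least 1 group. The exact permutation p was 0.7 or more, which this number of libraries cannot turn into evidence of equality. The size of a share depended on the length used. Per kilobase of mRNA Slc25a33 made up only 12.35% of its pair with RANKL and 12.26% with albiflorin. Its listed length, 1085 bases, is shorter than its mRNA of 1887 nt, whereas Slc25a36 is listed at 9585 bases against 5227 nt. Neither scale is therefore a sure measure of this share. Slc25a28 made up 40.4% and 41.43% of the mitoferrins on that scale.

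**Figure D5:**
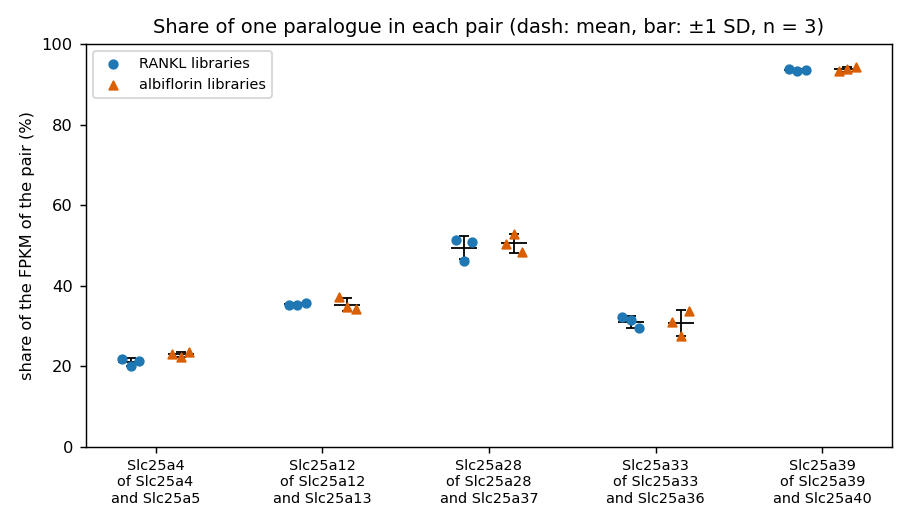
Share of 1 paralogue in the summed FPKM of each of 5 pairs, per library, with the mean and SD of 3 libraries per group. The Slc25a4 share is 20.1% to 21.8% with RANKL and 22.2% to 23.4% with albiflorin, and the groups overlap in the other 4 pairs.

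Genes that work with the carriers were taken from fixed lists. Carriers reach the inner membrane through the TIM22 pathway, and of 9 tested genes of it 3 rose and 0 fell, with a median log2 fold change of 0.25. This was 33.3% called, against 23.8% of all tested genes called and 12.4% called higher. These were the small chaperone genes Timm8b (0.57 ± 0.0969, edgeR adjusted p = 0.00097) and Timm13 (0.36 ± 0.101) and the pore gene Timm22 (0.28 ± 0.0933). The receptor gene Tomm70a (-0.03 ± 0.0669), Timm29 (-0.12 ± 0.0589) and Agk (-0.19 ± 0.0913), both TIM22 complex subunits, were not called. With the mRNA-length trend removed 0 of the 9 were called, against 10.5% of all tested genes. Timm22 kept its call under 4 of 16 alternatives, Timm13 under 9 and Timm8b under 14.

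Of 16 other mitochondrial membrane transporters 4 rose and 0 fell, with a median of 0.03; the 25% called lay near the 23.8% of all tested genes. The translocator protein gene Tspo (0.47 ± 0.0671), the pyruvate carrier subunit Mpc2 (0.44 ± 0.0797) and the outer-membrane channels Vdac2 (0.22 ± 0.0613) and Vdac3 (0.29 ± 0.0874) were those called, and 0 of the 16 were with the mRNA-length trend removed. Among 8 shuttle and citrate enzymes, the malate dehydrogenases Mdh1 (0.35 ± 0.0752, edgeR adjusted p = 0.00356) and Mdh2 (0.18 ± 0.0629) rose and the glycerol-3-phosphate dehydrogenase Gpd2 (-0.30 ± 0.0857) fell, 3 of 8 against 23.8% of all tested genes. Mdh2 kept its call under 6 of 16 alternatives, Gpd2 under 10, and Mdh2 turned to -0.02 with the mRNA-length trend removed. Mdh1, the cytosolic enzyme of the malate-aspartate shuttle, was the only gene of these lists still called after removal of the mRNA-length trend (0.26, edgeR adjusted p = 0.0161). Of the carrier-fold genes outside the name rule 1 of 3 tested rose, Mtch2, an outer-membrane insertase (0.20 ± 0.0670, edgeR adjusted p = 0.0411), against 12.4% of all tested genes called higher. The Mtch2 call held under 5 of 16 alternatives and was lost with DESeq2, after mRNA-length trend removal (adjusted p = 0.107) and without any 1 library other than albiflorin replicate 3.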

How the data were processed

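HISAT2 2.2.1 and featureCounts 2.0.6-p3 are named, without their settings, in the submitters' processing notes, beside CASAVA 1.8, fastp and DESeq2. No source used here names the genome build or the counting strand. The gene IDs of the deposited table carry the prefix MGP_C57BL6NJ, which names a strain other than the BALB/c origin of RAW264.7. The authors deposited raw counts per gene and FPKM, which equalled counts per kilobase of listed gene length over 1 total per library, -0.95% to 1.65% off the column total. Coordinates are those of the deposited table unless a build is named.

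Samples were grouped by title. All genes were tested with edgeR 4.0.16 (R 4.3.3): filterByExpr, TMM scaling, a quasi-likelihood F-test on group and Benjamini-Hochberg adjusted p under 0.05. SE is the absolute log2 fold change over the square root of F. CPM uses TMM-scaled library sizes. Trend removal subtracted each library's lowess trend (span 0.3) on mRNA length (GENCODE M21, matched for 47 of 47 members) or on the listed gene length, through offsets. Alternatives were RLE scaling, DESeq2 1.42.0, limma-voom 3.58.1, other filters, a replicate block, leaving out each library, and limma on log2(FPKM + 1) and log2(FPKM + 0.1), which understates changes of low genes. Of 60 list genes 54 matched by symbol and 4 by deposited description. The code was tested on simulated data.

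The naming rule gave values for all called members, the 8 highest by FPKM, 5 paralogue pairs and up to 4 called genes per list; other members were named by role. Members and lists were chosen with earlier results of these data known. 1 tested member and 1 marker gene are counted in the totals but not reported by name or plotted here.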

Additional observations from a re-analysis of the deposited data

How the results depend on the processing

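Slc25a4, Slc25a23 and Slc25a30 kept their calls under every alternative run, and Slc25a39 and Slc25a17 under 4 of 16, Slc25a44 under 10 of 16. The number of members called higher was 3, and it was 1 with no filter, 1 with the replicate block, 1 on log2(FPKM + 1), 1 on log2(FPKM + 0.1), 1 with the mRNA-length trend removed and 1 to 2 when a library was left out. The number called lower was 3, and 2 to 3 when a library was left out. The Slc25 members median log2 fold change was -0.03766 with the gene-length trend removed, -0.0381 with the mRNA-length trend removed and -0.02 to 0.00144 when a library was left out. Over all genes, 945 were higher with the gene-length trend removed, 663 higher and 723 lower after mRNA-length trend removal, and 901 and 909 lower on log2(FPKM + 1) and log2(FPKM + 0.1). Leaving out a library gave 984 to 1753 higher and 914 to 1644 lower genes, the counts being lowest without RANKL replicate 2 (1010 higher, 914 lower), without albiflorin replicate 1 (984 and 977) and without albiflorin replicate 2 (1025 and 999). With the mRNA-length trend removed Mdh2 turned to -0.01959. The cause of these shifts was not tested. Leaving out a library leaves fewer samples, and without albiflorin replicate 3 more genes were called. The counts were then 1753 higher and 1644 lower, against 1631 and 1496 with all 6 libraries. The replicate numbers showed no sign of pairing the samples. Same-numbered libraries correlated at -0.066 to 0.022 in their deviations from the group means, and differently numbered ones at -0.024 to 0.072. With so few libraries this cannot exclude a shared culture or day, on which the labels are silent. The replicate block gave 1358 higher and 1214 lower genes. The share difference between groups changed sign when a library was left out for Slc25a12 (-0.95 to 0.56 percentage points), Slc25a28 (-0.598 to 2.19), Slc25a33 (-1.74 to 1.43) and Slc25a39 (-0.123 to 0.426). Using mRNA length for these shares, an alternative chosen after seeing the data, changed no sign. It scales a gene by the same factor in every library, so the order of the libraries could not change, and this is no check of the differences. Members under about 10 CPM had an SE of 0.164 or more, so small changes were not detectable at this depth.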
